A study of Mus musculus and Homo sapiens with 33 samples.

Results

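The genes described here encode the enzymes that supply and limit deoxynucleotides, the building blocks of DNA. They were chosen by symbol as known components of ribonucleotide reductase and of thymidylate and salvage synthesis (Rrm1, Rrm2, Rrm2b, Tyms, Dctd, Dut, Tk1, Dck and Samhd1). All 9 were found among the 38924 gene IDs of the RNA-seq count matrix, and 8 had enough reads to be tested. The RNA came from KPL cells, a murine lung adenocarcinoma line. In the 3 4-OHT libraries the cells had been given 4-hydroxytamoxifen (4-OHT) for 72 hours, at a dose the labels write as 10 nm, to delete Lin9, and the 3 control libraries came from cells labelled ctrl and named EtOH in the sample descriptions. Both groups were grown in the same medium and derive from 1 line. Neither the Lin9 alleles nor the recombinase that 4-OHT switches on is named in the labels. Treated cells with an intact Lin9 gene were not analysed here, so effects of 4-OHT itself and of Lin9 loss cannot be told apart.

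Lin9 encodes a core subunit of MuvB, a complex that together with B-MYB activates genes needed late in the cell cycle. Ribonucleotide reductase turns ribonucleotides into deoxyribonucleotides and sets the pace of their synthesis. Thymidylate is made from dUMP by a folate-dependent methylation, and salvage kinases recover deoxynucleosides from outside the synthetic route. Several of these genes are classical S-phase genes, switched on by E2F factors as cells prepare to copy their DNA. The comparison asks how the RNA of these genes differs between cells given 4-OHT for 72 hours and control cells.

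The libraries held between 5859826 and 5913942 counted reads, so that precision was alike across them. Lin9 was counted at 108, 107 and 101 reads in 4-OHT libraries, against 156, 124 and 159 reads in control libraries. Its level was 17.8 ± 0.615 CPM (counts relative to library size, scaled between libraries by TMM) in 4-OHT and 25.1 ± 3.29 CPM in control libraries (SD, n = 3 each). The log2 fold change was -0.49 (edgeR adjusted p = 0.0011). These are whole-gene counts, which keep reads of exons outside a deleted part. Whether Lin9 was deleted in all treated cells was not tested. The epithelial markers Epcam, Cdh1, Krt8 and Krt18 were all counted. Epcam stood at 171 CPM in 4-OHT and 223 CPM in control libraries and Cdh1 at 527 CPM in 4-OHT and 581 CPM in control libraries. Krt8 stood at 1912 CPM in 4-OHT and 1840 CPM in control libraries and Krt18 at 1556 CPM in 4-OHT and 1557 CPM in control libraries. Epcam and Cdh1 were called lower (edgeR adjusted p = 4.4e-12 and 0.0010), whereas Krt8 and Krt18 were not called (0.219 and 0.995). Of the mesenchymal markers, Vim (3092 CPM in 4-OHT, 2792 CPM in control) and Cdh2 (111 CPM in 4-OHT, 98.7 CPM in control) were called higher in 4-OHT libraries (edgeR adjusted p = 1.2e-05 and 0.028). Col1a1 (5.25 CPM in 4-OHT, 6.74 CPM in control) was not called (0.342). Their part in the results below was not tested. Of the lung markers, Nkx2-1 was low (4.74 CPM in 4-OHT and 6.51 CPM in control libraries), Sftpb had 3 reads in all libraries together, and Sftpc and Napsa were listed at 0. A listed 0 alone cannot be read as absence of RNA in this matrix (see Tk1 below). The blood marker Ptprc had 5 reads in each group, and the vessel marker Pecam1 had 23 reads in 4-OHT and 18 reads in control libraries. Neither had enough reads to be tested.

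Among the 8 tested enzyme genes, 1 had less RNA in 4-OHT libraries, 0 had more and 7 did not pass (quasi-likelihood test of edgeR, threshold 0.05 on the p adjusted after Benjamini and Hochberg over all 13355 genes tested). Across all genes tested 9.79% were called, 5.17% as lower and 4.61% as higher, so 1 of 8 is near the background share. DESeq2 called 1 of the 8 lower, beside 2.88% of all genes it tested, and the authors' deposited table has 1 of 8 lower at an FDR under 0.05, beside 3.90% of its genes. At an unadjusted edgeR p under 0.05 there were 2 (21.2% of all genes). The gene that fell was Rrm2. The median log2 fold change of the 8 was -0.05, beside 0.00052 for all genes tested, and single values lay between -0.19 and 0.11. In bulk RNA, fewer cells in S phase and less RNA per cell cannot be told apart. The labels do not say whether replicates were separate cultures, so p-values measure only the spread between these libraries.

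**Figure D1:**
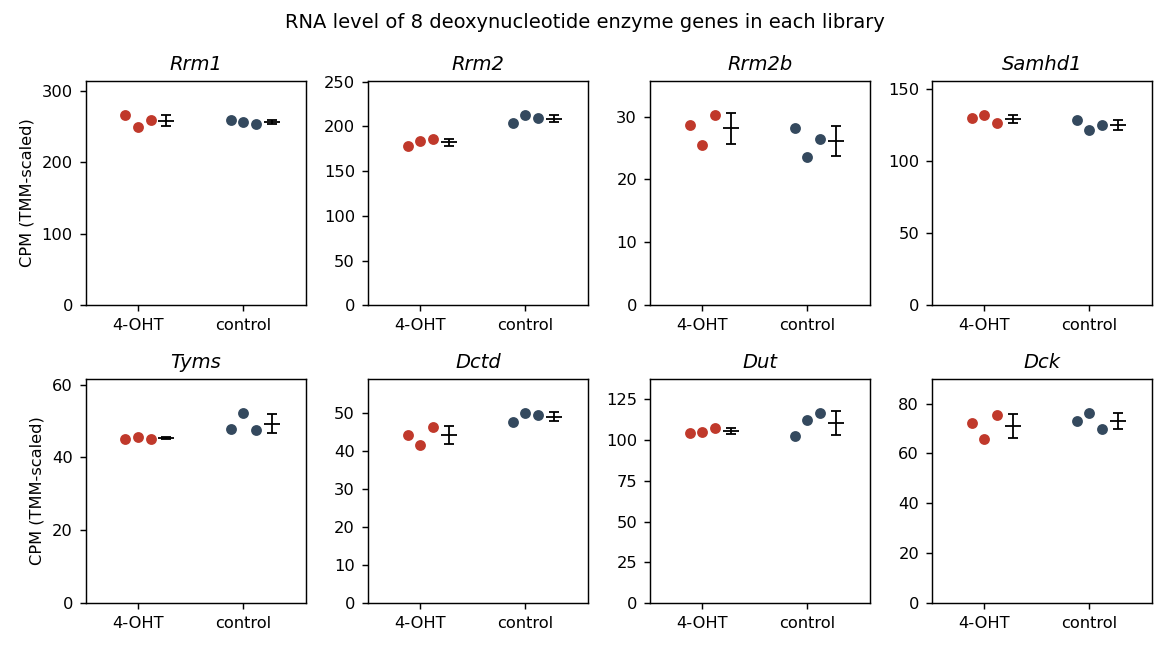
Level of the 8 counted enzyme genes in each library, in TMM-scaled CPM on axes that start at 0; points are libraries and the bar beside them is the mean ± SD (n = 3 each). All 3 Rrm2 points of 4-OHT libraries (178 to 186 CPM) lie below all 3 of control libraries (204 to 213 CPM).

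Rrm1 encodes the large subunit of ribonucleotide reductase, which holds the active site and the sites of allosteric control. It lies at chr7:102441695-102469771 (ENSMUSG00000030978; all positions are GRCm38.p6). Its counts were 1569, 1482 and 1530 reads in 4-OHT libraries, against 1513, 1493 and 1477 reads in control libraries. The groups overlapped, and the log2 fold change was 0.01 with a 95% interval of -0.06 to 0.09 (edgeR adjusted p = 0.901). The interval spans a change of -4.23% to 6.37% in the level of Rrm1.

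Rrm2 encodes the small subunit that carries the tyrosyl radical in cycling cells; its protein is destroyed after S phase and made anew in the next cycle. The gene (ENSMUSG00000020649) lies at chr12:24708254-24714146. It was counted at 1050, 1089 and 1095 reads in 4-OHT libraries, against 1193, 1238 and 1225 reads in control libraries. Every 4-OHT library was below every control library. The level was 183 ± 4.02 CPM in 4-OHT and 209 ± 4.30 CPM in control libraries (SD, n = 3 each), so that Rrm2 fell by 12.6%, with a 95% interval of -17.5% to -7.49% (log2 fold change -0.19, SE 0.04, edgeR adjusted p = 0.00035). The authors' deposited table gives Rrm2 a log2 fold change of -0.20 and an FDR of 0.00074. DESeq2 also called it (adjusted p = 0.011; 0.00020 to 0.011 over the 13 alternatives). Among the 691 genes called lower, 512 had a larger fall than Rrm2. Genes with fewer reads need a larger fall to be called, so this rank depends in part on the call.

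Rrm2b encodes the alternative small subunit, a p53-inducible protein that serves DNA repair and mitochondrial DNA upkeep outside S phase. The gene (ENSMUSG00000022292) lies at chr15:37923952-37961119. Its counts were 169, 151 and 178 reads in 4-OHT libraries and 165, 137 and 154 reads in control libraries. The groups overlapped (log2 fold change 0.11, 95% interval -0.09 to 0.31, edgeR adjusted p = 0.605). With so few reads the interval runs from -6.12% to 23.9%, so a moderate rise within it was not excluded. RefSeq places a pseudogene, Gm3362, across 1201 bases of the Rrm2b locus, and that pseudogene was listed at 0. Whether reads of the shared bases were dropped from both genes cannot be told from these counts.

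Both small subunits pair with the same large subunit, and ratios between genes within a library do not depend on library scaling. For each Rrm2b read there were 6.21, 7.21 and 6.15 Rrm2 reads in 4-OHT libraries, against 7.23, 9.04 and 7.95 in control libraries. These are ratios of reads and were not corrected for transcript length. The log2 ratio of Rrm2 to Rrm2b was 2.70 ± 0.13 in 4-OHT and 3.01 ± 0.16 in control libraries, a difference of -0.30 (SD, n = 3 each; two-sided exact permutation p = 0.1, the smallest that 3 against 3 libraries allow). The 4-OHT value nearest to control (2.850) and the control value nearest to it (2.854) almost met. Rrm2 made up 86.1%, 87.8% and 86.0% of the reads of both small subunit genes in 4-OHT libraries, against 87.8%, 90.0% and 88.8% in control libraries.

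The ratio of Rrm2 to its partner Rrm1 left a wider gap between the groups. It was 0.669, 0.735 and 0.716 reads per Rrm1 read in 4-OHT libraries, against 0.789, 0.829 and 0.829 in control libraries. The log2 ratio differed by -0.21 between the groups, which do not overlap (exact permutation p = 0.1).

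**Figure D2:**
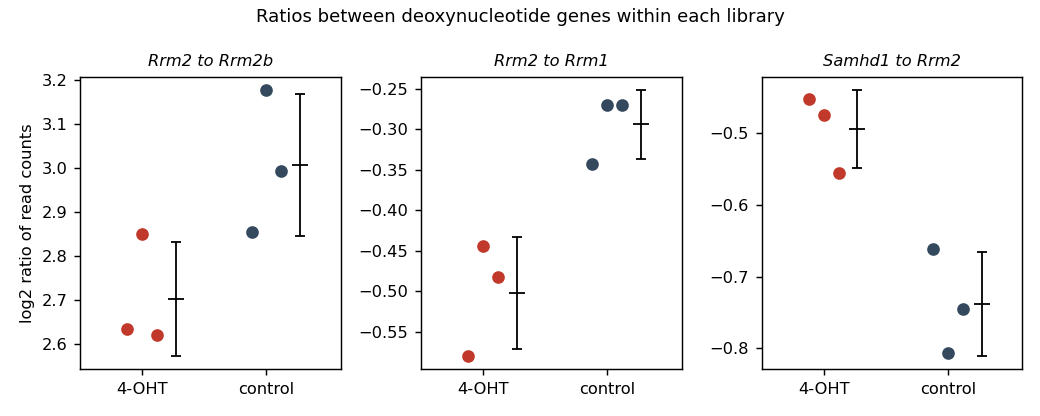
Log2 ratio of read counts within each library for Rrm2 to Rrm2b, Rrm2 to Rrm1 and Samhd1 to Rrm2; points are libraries, the bar beside them is the mean ± SD (n = 3 each), and the vertical axes do not start at 0. The groups do not overlap in any of the 3 panels, and the gap is narrowest for Rrm2 to Rrm2b.

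The promoters of Rrm2 and Rrm1 are shown because the genes encode partners of 1 enzyme, and Rrm2 was called whereas Rrm1 was not. Each line gives the 250 bases before the annotated start in RefSeq (GRCm38.p6, plus strand, 5′ to 3′), with matches to the motifs searched in capitals. The Rrm2 stretch is chr12:24708004-24708253 and the Rrm1 stretch is chr7:102441445-102441694.
Rrm2: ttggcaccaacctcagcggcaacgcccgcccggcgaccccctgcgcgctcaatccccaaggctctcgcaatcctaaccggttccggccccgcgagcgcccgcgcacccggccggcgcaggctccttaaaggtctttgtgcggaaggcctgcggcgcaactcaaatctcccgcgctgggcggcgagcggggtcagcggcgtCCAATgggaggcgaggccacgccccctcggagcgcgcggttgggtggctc
Rrm1: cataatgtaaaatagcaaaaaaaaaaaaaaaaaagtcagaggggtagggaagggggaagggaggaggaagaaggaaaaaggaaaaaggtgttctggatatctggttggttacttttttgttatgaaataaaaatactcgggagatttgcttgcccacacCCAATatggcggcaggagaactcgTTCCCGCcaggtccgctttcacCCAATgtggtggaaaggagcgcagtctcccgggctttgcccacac

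The motifs searched on both strands were TTTGAA and, as a variant, TTCGAA (the core of the cell cycle homology region that MuvB is known to bind), the E2F-like word TTCCCGC with its variants TTGGCGC or else TTCGCGC, and the CCAAT box bound by NF-Y. The Rrm2 window held 1 CCAAT box, which ends 46 bases before the start. The Rrm1 window held 2 CCAAT boxes, which end 87 and 41 bases before the start, with a TTCCCGC word between them. Neither window held TTTGAA. Over 32851 RefSeq promoter windows of the same length, 33.8% held CCAAT, 16.0% held TTTGAA, 3.82% held TTCCCGC and 1.34% held TTCGAA, while 1.97% held TTGGCGC and 1.28% held TTCGCGC. Of 8 enzyme genes with a promoter entry, only Dck had TTTGAA, on the minus strand and 240 bases before the start. A match is a description of letters and not a binding site.

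Samhd1 works against the reductase: it cleaves deoxynucleoside triphosphates and keeps their level low in resting cells. The gene (ENSMUSG00000027639) lies at chr2:157097534-157135096. It was counted at 767, 783 and 745 reads in 4-OHT libraries, against 754, 708 and 731 reads in control libraries. The groups overlapped and no change was called (log2 fold change 0.05, 95% interval -0.05 to 0.14, edgeR adjusted p = 0.652). Per Rrm2 read there were 0.730, 0.719 and 0.680 Samhd1 reads in 4-OHT libraries, against 0.632, 0.572 and 0.597 in control libraries. On the log2 scale this ratio differed by 0.24 and the groups did not overlap (exact permutation p = 0.1). It shares the Rrm2 counts with the ratios above and is not an independent observation.

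In the thymidylate branch, Tyms encodes thymidylate synthase, which methylates dUMP to dTMP and is the target of fluorouracil. The gene (ENSMUSG00000025747) lies at chr5:30038546-30073645. Its counts were 266, 271 and 266 reads in 4-OHT libraries, against 280, 304 and 278 reads in control libraries. All 4-OHT values lay below all control values, yet the difference did not pass (log2 fold change -0.12, 95% interval -0.27 to 0.03, edgeR adjusted p = 0.372). Dctd encodes the deaminase that turns dCMP into dUMP, the substrate of thymidylate synthase. The gene (ENSMUSG00000031562) lies at chr8:48099092-48141667. It was counted at 261, 247 and 273 reads in 4-OHT libraries, against 278, 291 and 288 reads in control libraries. These groups did not overlap either (log2 fold change -0.15, 95% interval -0.30 to -0.0021). The unadjusted edgeR p was 0.047 and the adjusted p was 0.228, so no change was called. In 3 of the 8 tested genes, Rrm2, Tyms and Dctd, the groups did not overlap, which was the case for 24.3% of all genes tested.

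Dut encodes the pyrophosphatase that splits dUTP, which keeps uracil out of DNA and yields dUMP for thymidylate synthesis. The gene (ENSMUSG00000027203) lies at chr2:125247248-125259049. Its counts were 616, 622 and 635 reads in 4-OHT libraries, against 598, 654 and 681 reads in control libraries. The 4-OHT values lay within the range of the control values (log2 fold change -0.06, 95% interval -0.17 to 0.04, edgeR adjusted p = 0.552). The spread of Dut was narrower among 4-OHT libraries (106 ± 1.79 CPM) than among control libraries (110 ± 7.36 CPM).

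Among the salvage kinases, Dck encodes deoxycytidine kinase, which also activates gemcitabine and cytarabine. The gene (ENSMUSG00000029366) lies at chr5:88765013-88783277. It was counted at 425, 391 and 444 reads in 4-OHT libraries, against 427, 444 and 407 reads in control libraries. The groups overlapped, with 1 4-OHT library below all control libraries and the other two within their range (log2 fold change -0.04, 95% interval -0.16 to 0.09, edgeR adjusted p = 0.807).

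Tk1 encodes the cytosolic thymidine kinase, a classical marker of S phase. It was listed at 0 in all 6 libraries, it was not tested, and the authors' deposited table has a row for 8 of the 9 enzyme genes but none for Tk1. Genes that every cell uses were also listed at 0 in all 6 libraries, among them the ribosomal protein genes Rpl13, Rpl35 and Rpl35a, the initiation factor genes Eif2s2 and Eif3m, and the purine salvage gene Aprt, all looked up after the value of Tk1 was seen. The 0 is therefore a property of the deposited matrix that cannot be read as absence of Tk1 RNA. Tk1 (ENSMUSG00000025574) lies at chr11:117815519-117826087 and overlaps Afmid by 585 bases. The neighbours Afmid and Syngr2 on either side were listed at 0 as well. The next gene beyond Afmid, Birc5, had 1455 reads in 4-OHT and 1732 reads in control libraries. On the other side of Syngr2, 6030468B19Rik had 1 read in all and Tmc6, further out, had 647 and 672 reads in 4-OHT and control libraries. What sets these genes to 0 was not tested. The ratio of Tk1 to Tyms could not be formed for this reason. Tk2, which encodes the mitochondrial thymidine kinase, was counted at 104, 90 and 85 reads in 4-OHT libraries and 104, 90 and 84 reads in control libraries, and its groups overlapped (log2 fold change -0.01, edgeR adjusted p = 0.978).

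**Figure D3:**
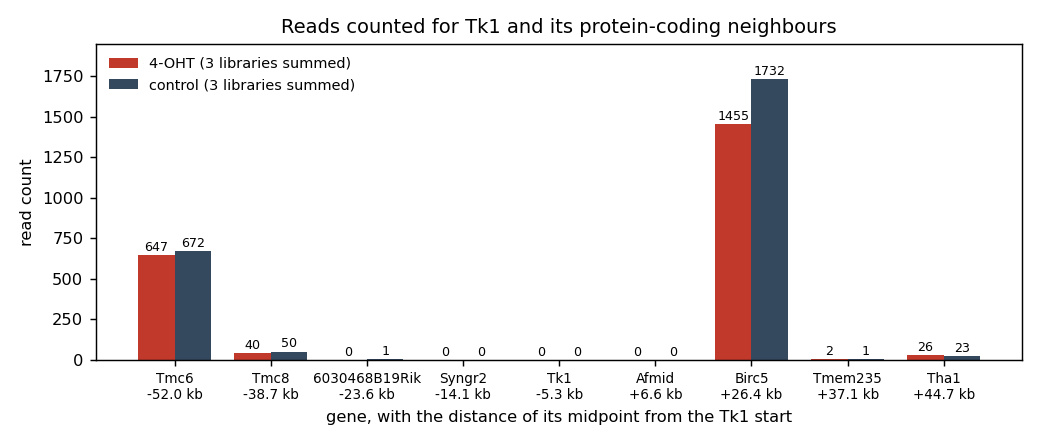
Reads counted for Tk1 and the 4 protein-coding genes on either side, in chromosome order and summed over the 3 libraries of each group; the label gives the distance of each gene's midpoint from the Tk1 start in kb. Syngr2, Tk1 and Afmid, 3 genes in a row, are listed at 0, with Birc5 (1455 and 1732 reads in 4-OHT and control libraries) next to them.

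The wider nucleotide pathway was described with 8 lists that together name 56 genes without any of the enzymes above. Among the 51 tested, 3 had less RNA in 4-OHT libraries, 1 had more and 47 did not pass (edgeR adjusted p under 0.05), which is 7.84% beside 9.79% of all genes tested. Their median log2 fold change was -0.06, and 35 of the 51 values were below 0. The 5 genes not tested were Cmpk2, Nme1, Nme2, Nme3 and Dnph1, with at most 7 reads each over all libraries. Nme2, Nme3 and Dnph1 were listed at 0.

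The 3 genes that fell all belong to the folate cycle, which hands methylene groups to thymidylate synthase and formyl groups to purine synthesis. Shmt2, the mitochondrial serine hydroxymethyltransferase, was at 152, 158 and 156 CPM in 4-OHT libraries, against 199, 203 and 203 CPM in control libraries (log2 fold change -0.37, SE 0.04, edgeR adjusted p = 2.8e-11). Mthfd2, the mitochondrial methylenetetrahydrofolate dehydrogenase, was at 104, 112 and 112 CPM in 4-OHT libraries, against 138, 135 and 127 CPM in control libraries (log2 fold change -0.29, SE 0.05, edgeR adjusted p = 6.9e-06). Mthfd1l, the mitochondrial formyltetrahydrofolate synthetase, named after its value was seen, had a log2 fold change of -0.24 (edgeR adjusted p = 0.0012). All 3 products work in mitochondria. Of the cytosolic counterparts, Shmt1 had a log2 fold change of 0.03 and Mthfd1 of -0.11, values given after they were seen, and neither was called. Whether mitochondrial and cytosolic genes differ was not tested. The folds of all 3 called genes were larger than that of Rrm2.

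Purine synthesis supplied the 1 gene that rose. Impdh1 encodes an IMP dehydrogenase, which commits IMP to guanine nucleotides, and stood at 73.8, 78.6 and 75.4 CPM in 4-OHT libraries, against 62.1, 65.6 and 66.2 CPM in control libraries (log2 fold change 0.23, SE 0.06, edgeR adjusted p = 0.0063). The call was lost in DESeq2 (adjusted p = 0.118), without 4-OHT replicate 2 (edgeR, 0.056) and without control replicate 1 (edgeR, 0.064); over all alternatives it ran from 0.0042 to 0.118. The other 9 purine synthesis genes did not pass, and 8 of the 10 values in the list were below 0.

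No gene was called in the remaining lists. The most abundant gene of each is named, with its log2 fold change. Cad, which encodes the enzyme of the first steps of pyrimidine synthesis, had a log2 fold change of -0.12 (edgeR adjusted p = 0.065), and its 4 list partners did not pass. Dtymk, which encodes the kinase that acts on dTMP, had -0.08 with 7 of 11 nucleotide kinase genes tested. Txnrd1, whose product keeps thioredoxin reduced for the reductase, had 0.05, and the 4 reductant values were all above 0. For mitochondrial salvage (5 genes tested) Slc25a36, a pyrimidine nucleotide carrier gene, had -0.11, and all 5 values were below 0. In breakdown and sanitising (10 genes tested) Pnp, the purine nucleoside phosphorylase gene, had 0.04, and for nucleoside transport (3 genes tested) Slc29a1, an equilibrative transporter gene, had -0.08.

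Beside these stand 15 tested genes of the replication machinery and 16 of mitosis. In the replication list 7 were lower, 0 higher and 8 were not called (edgeR; 5.17% of all genes tested were lower and 4.61% higher), with a median log2 fold change of -0.15. Mcm6, a subunit of the replicative helicase, was at 188, 172 and 183 CPM in 4-OHT libraries, against 219, 224 and 214 CPM in control libraries (log2 fold change -0.28, edgeR adjusted p = 1.8e-07), and Mcm5 had a log2 fold change of -0.27. In the mitosis list, against the same shares of all genes, 15 were lower and 1, Bub1, was higher (named after its value was seen), with a median of -0.84. Top2a, the topoisomerase gene, was at 365 ± 12.2 CPM in 4-OHT and 650 ± 22.7 CPM in control libraries, and Cenpf, a kinetochore gene, had a log2 fold change of -1.30. The Rrm2 value of -0.19 lies among the replication genes. With Bub1 included, it also lies within the range of the 16 mitotic genes (-1.44 to 0.22). The 15 mitotic genes that fell all had larger falls, the smallest being that of Birc5 (-0.27), named after its value was seen. The interval of Birc5 (-0.38 to -0.16) overlaps that of Rrm2 (-0.28 to -0.11), so these values do not set Rrm2 apart from every mitotic gene. No test compares the lists, which were chosen with earlier results of these data known, so their counts are descriptions and not independent evidence. Cdt1 of the replication list was listed at 0.

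**Figure D4:**
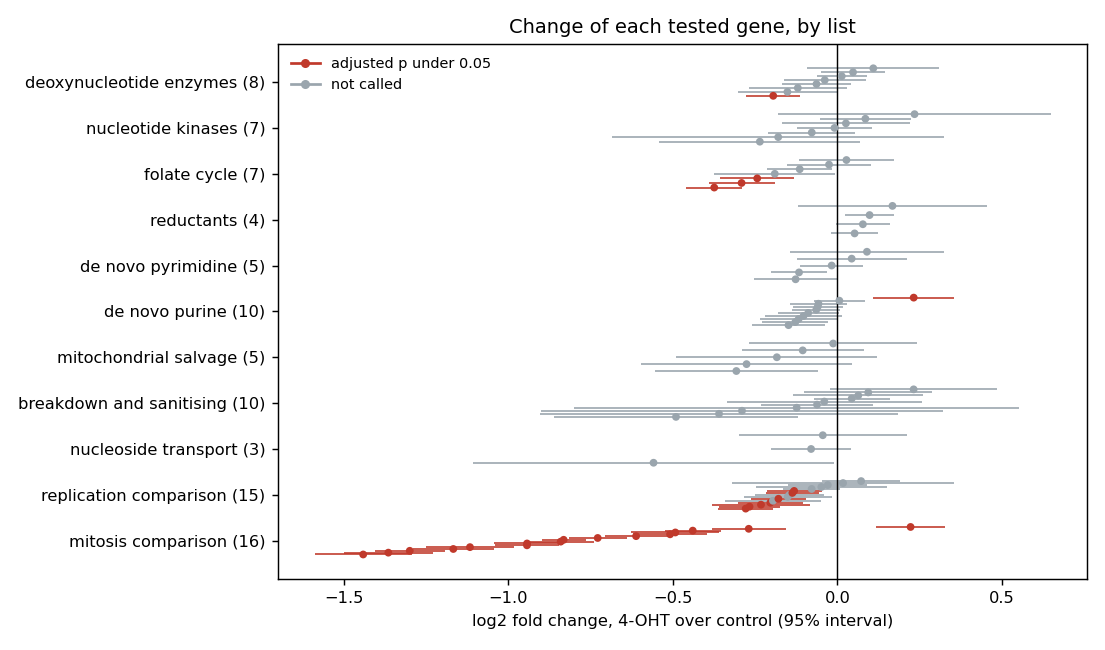
Log2 fold change of 4-OHT over control for each tested gene with its 95% interval, by list, with the number tested in brackets; red marks genes called at an edgeR adjusted p under 0.05. The 8 enzyme genes lie between -0.19 and 0.11 with 1 call, whereas 15 of 16 mitotic genes are red and below 0. All lists were chosen with earlier results of these data known.

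The genes whose pattern over the 6 libraries was most like that of Rrm2 were sought by the root mean square difference of centred log2 CPM among 8118 genes with a mean of at least 20 CPM. They were Nars (0.012), Jag2 (0.013) and Acbd6 (0.019), with log2 fold changes of -0.19, -0.18 and -0.18. Nars was called (edgeR adjusted p = 0.00011), whereas Jag2 (0.053) and Acbd6 (0.218), which have fewer reads, were not. Most like Rrm1 were Trpc4ap (0.0082), Nsun2 (0.012) and Eif4g2 (0.012), all with log2 fold changes between 0.00075 and 0.025. The search used these same 6 libraries, so the likeness of these fold changes to those of Rrm2 and Rrm1 follows from the choice.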

How the data were processed

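RNA-seq of KPL cells was used, 3 4-OHT and 3 control libraries of 33 samples in the series; 27 ChIP-seq samples were left out. Polyadenylated RNA was sequenced, per the labels. The matrix deposited by the authors holds raw read counts per Ensembl gene. The authors' table, per the file headers, holds log2 fold changes with log2 mean CPM, and p-values with FDR. Tools named in the submitters' processing notes, without roles, are edgeR, bedtools 2.26.0, TopHat2 2.1.0, Bowtie2 and Bowtie 1.1.2, and the mouse builds named are mm10 and GRCm38.p6. How reads were assigned to genes, with which annotation and whether by strand, is not given in the sources used here, so reads of overlapping, antisense or near-identical genes may be misassigned or dropped.

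Of 38951 lines, 27 repeats of 12 IDs (0.109% of reads) were dropped, so that each ID stood once. In R 4.3.3 with edgeR 4.0.16, filterByExpr (minimum count 10, minimum total 15) kept 13355 genes, libraries were scaled by TMM, and groups were compared by the robust quasi-likelihood F test, two-sided, with Benjamini-Hochberg adjustment over all genes tested. The standard error is the size of the log2 fold change divided by the root of F, and intervals are at 95%. Ratios used raw counts and exact permutation over libraries. Intervals cover counting error and the spread between libraries. The procedure was tested on simulated data with the same dispersion for all genes and changes all larger than that of Rrm2. That test therefore does not bear on a change as small as that of Rrm2. Alternatives used DESeq2 1.42.0, limma 3.58.1 (voom), other scalings and filters, a replicate block and leaving out each library. No libraries were merged, since those of 1 group differed beyond counting noise (chi-square divided by its degrees of freedom, 1.26 to 1.48). Members and gene lists were chosen with earlier results of these data known. Named genes were all members, Lin9, the 2 called genes with the smallest p per list (or the most abundant where none was called) and the 3 genes most like Rrm2 and most like Rrm1. Coordinates and promoters are RefSeq's for GRCm38.p6.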

Additional observations from a re-analysis of the deposited data

How the results depend on the processing

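Rrm2 was called lower under all 13 alternatives (log2 fold change -0.21 to -0.18, adjusted p 0.00020 to 0.011), and the other 7 tested enzyme genes were called under none of them. The number of enzyme genes lower stayed at 1 and the number higher at 0 when any 1 library was left out. Shmt2, Mthfd2 and Mthfd1l were called lower under all 13, and leaving out 1 library gave 3 to 4 of the wider list lower, the added one being Cad without control replicate 2 (adjusted p = 0.041, and 0.041 to 0.405 over all alternatives). The number higher in that list was 2 with library totals alone (Impdh1 and Txn1, which had an adjusted p of 0.048), 0 in DESeq2 (no gene at an adjusted p under 0.05, and Impdh1 at 0.118) and 0 to 1 when 1 library was left out. Over all genes DESeq2 called 362 lower and 208 higher, and leaving out 1 library gave 508 to 643 lower and 403 to 542 higher, with 403 higher without control replicate 1.

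Ratio differences kept their direction with 5 counts added to both genes. With 1 library left out, Rrm2 to Rrm2b ran from -0.38 to -0.22 and Rrm2 to Rrm1 from -0.24 to -0.17. Samhd1 to Rrm2 ran from 0.21 to 0.28. Leaving out 1 library could not reverse these differences, since the groups do not overlap in any of the ratios. Genes near no change crossed 0 without being called when 1 library was left out: Rrm1 (-0.0071 to 0.038), Dck (-0.084 to 0.014), Dtymk (-0.17 to 0.013), Pnp (-0.0018 to 0.10), Nsun2 (-0.013 to 0.023) and Eif4g2 (-0.017 to 0.026). Eif4g2 was also below 0 with size factors in edgeR and in DESeq2 (-0.0017 each) and with no filter (-0.0011); the cause was not tested. Jag2 passed with size factors in edgeR (adjusted p = 0.049, and 0.049 to 0.336 over all alternatives). The ratio of Tk1 to Tyms gave no value under any of them.

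Same-numbered 4-OHT and control libraries showed no shared deviation (correlations -0.076 to 0.033 over 8119 genes). The spread within groups was not far beyond counting noise (chi-square divided by its degrees of freedom, 1.26 to 1.48). These correlations therefore cannot decide whether the libraries were paired. With the replicate block 665 genes were lower and 579 higher, 1 of them the enzyme gene Rrm2. Pairing the libraries by number left the ratio difference of Rrm2 to Rrm1 at -0.21. The mean of paired differences always equals the difference of the group means. That value therefore cannot show whether pairing matters for the ratio. With 498 reads summed over 4-OHT and 456 over control libraries, Rrm2b is the enzyme gene whose precision depth limits most.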
